A study of Mus musculus with 20 samples.

Results

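The genes described here are 51 genes of DNA replication and mitosis, measured in mouse macrophages with and without LPS. The 51 genes were chosen with earlier results of these data known. Their probes were taken by name: every non-control probe whose gene name on the array equals one of the 51, without regard to its values. All 51 were on the array, with 72 probes, among 30175 gene names in all. Of these probes 70 passed the filter for signal above background, and 50 of the 51 genes kept at least 1 probe, against 22050 of all gene names. The gene without one was Ccne2, which encodes a cyclin of S phase entry and whose single probe was well above background on 0 arrays. By role the genes fall into 30 of mitosis, 18 of the G1/S transition and DNA replication (17 of them kept), and 3 regulators of G1 (Ccnd1, Cdkn1a and Cdkn1b). A gene with several kept probes, which was the case for 15 of the 51, is given by the probe of highest mean intensity.

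Messenger RNA of macrophages grown from bone marrow of age- and gender-matched C57BL/6 mice, in medium conditioned with M-CSF by L929 cells, was measured on 20 arrays with 2 colours. By their labels the mice were wild-type or lacked TRIF (TRIF-KO), MyD88 (MyD88-KO) or both adapters (double-KO). The cells were kept in serum-free DMEM with 200 ng/mL of ultrapure LPS from Salmonella minnesota or without it for 1, 2, 4, 8 or 16 h. An array compared the LPS-treated and the untreated cells of 1 genotype at 1 time. LPS-treated RNA carried Cy5 except at 2 h in MyD88-KO, where the dyes were swapped and the sign of the ratio was turned. There was 1 array for each genotype and time, and nothing in the labels tells whether arrays came from separate animals or cultures, so p-values measure only the spread between these arrays. The receptor Tlr4, which senses LPS, signals through MyD88 and through TRIF, the product of Ticam1. All groups, the untreated cells included, were replated and moved from medium with serum to serum-free medium.

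A dividing cell passes from G1 into S phase when cyclin D and cyclin E kinases release E2F factors, which switch on the genes for nucleotide synthesis and for the MCM helicase that opens DNA at origins. Genes of mitosis are switched on later, in G2, largely through CCAAT boxes bound by NF-Y and through an element called CHR (cell cycle genes homology region) bound by the MuvB complexes. Macrophages grown from bone marrow divide in response to M-CSF, and LPS is known to stop that division.

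Promoter sequences of both roles are shown first because the values below are given by these roles. RefSeq (GRCm38.p6) held the promoter of 42 of the 51 genes, and the 250 bases before the start of each were searched on both strands for the CHR words TTTGAA and TTCGAA, the CCAAT box CCAAT, and the E2F words GCGGGAA and GCGCGAA. No word of one kind contains a word of another kind. The 9 genes without an entry were Ccna2, Cdc25c, Aurkb, Kif20a, Tpx2, Mcm4, Ccne2, Gins1 and Ccnd1. Among 25 mitosis genes, a CCAAT box was found in 21 (84%), a CHR word in 10 (40%) and an E2F word in 0. Among 15 genes of G1/S and replication, a CCAAT box was found in 8 (53.3%), a CHR word in 2 (13.3%) and an E2F word in 5 (33.3%). In the windows of all 27025 genes of the table the shares were 34.5%, 17.4% and 5.02%. A match is a run of letters and not a measured binding site. The 5 windows printed here are of Cdc20 and Ccnb1, which had mean LPS ratios at 8 h among the 4 lowest of the mitosis genes, of Mki67, the mitosis gene that rose, and of Mcm6 and Rrm1 for replication. Each reads 5′ to 3′ along the gene and ends at the base before the start, with the words searched in capitals. Cdc20 lies at chr4:118437344-118437593 (minus strand), Ccnb1 at chr13:100786487-100786736 (minus), Mki67 at chr7:135716380-135716629 (minus), Mcm6 at chr1:128359706-128359955 (minus) and Rrm1 at chr7:102441445-102441694 (plus).
Cdc20: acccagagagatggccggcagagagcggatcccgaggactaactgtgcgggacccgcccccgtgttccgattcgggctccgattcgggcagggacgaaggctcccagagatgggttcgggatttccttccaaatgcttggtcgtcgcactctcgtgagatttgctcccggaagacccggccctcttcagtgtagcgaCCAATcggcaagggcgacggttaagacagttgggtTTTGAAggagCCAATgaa
Ccnb1: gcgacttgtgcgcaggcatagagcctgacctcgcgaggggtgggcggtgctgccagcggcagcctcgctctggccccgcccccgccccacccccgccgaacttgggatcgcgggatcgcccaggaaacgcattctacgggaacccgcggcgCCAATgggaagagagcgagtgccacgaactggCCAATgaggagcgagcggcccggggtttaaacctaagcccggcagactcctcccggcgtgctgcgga
Mki67: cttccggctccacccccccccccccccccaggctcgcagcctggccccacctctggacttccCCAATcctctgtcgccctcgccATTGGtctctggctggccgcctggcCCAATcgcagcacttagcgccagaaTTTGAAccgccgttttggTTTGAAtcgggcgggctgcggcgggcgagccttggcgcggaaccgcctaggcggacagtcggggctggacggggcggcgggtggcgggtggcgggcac
Mcm6: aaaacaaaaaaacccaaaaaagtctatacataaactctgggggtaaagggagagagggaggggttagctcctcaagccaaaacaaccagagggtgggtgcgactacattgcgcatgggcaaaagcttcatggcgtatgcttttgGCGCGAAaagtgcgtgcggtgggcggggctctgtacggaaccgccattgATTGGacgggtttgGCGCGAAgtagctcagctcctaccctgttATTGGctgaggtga
Rrm1: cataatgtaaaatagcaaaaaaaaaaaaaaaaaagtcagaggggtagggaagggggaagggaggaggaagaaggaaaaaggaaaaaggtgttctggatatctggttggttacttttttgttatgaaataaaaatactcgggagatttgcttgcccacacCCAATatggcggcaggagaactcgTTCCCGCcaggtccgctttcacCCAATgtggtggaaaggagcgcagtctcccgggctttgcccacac

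The label of the cells was borne out by 8 of 8 macrophage markers on the array, which were well above background in untreated cells on all 20 arrays. The deletion labels were checked on the targeted genes. On the log2 scale of normalized intensity, Ticam1 in untreated cells was 10.65 ± 0.19 (SD, n = 5) in wild-type, 10.81 ± 0.28 (n = 5) in the arrays labelled TRIF-KO, 10.47 ± 0.09 (n = 4) in MyD88-KO and 7.28 ± 0.04 (n = 5) in double-KO. The probe therefore fell in double-KO and not in the arrays labelled TRIF-KO, which are called TRIF-KO-labelled, or given under the TRIF-KO label, from here on, and no direction below is credited to loss of TRIF in them. The Myd88 probe lay between 13.78 and 14.96 in all 4 genotypes, and whether it lies in the deleted part is not known, so it checks nothing. Of the 43020 non-control spots of an array, 57.0% to 70.5% were well above background. Arrays of neighbouring times shared slides, and the arrays lay on 5 slides scanned on 2 days. All wild-type and TRIF-KO-labelled arrays were scanned on day 1 and all double-KO arrays on day 2, with MyD88-KO on both. In MyD88-KO the arrays of 1 and 2 h lay on slide 3, scanned on day 1. Those of 4, 8 and 16 h lay on slide 4, scanned on day 2, so early and late times there also differ in slide and scan day. Wild-type and double-KO shared no slide and no scan day. A difference between their levels cannot be told apart from one of slide or scan day. Wild-type and MyD88-KO shared no slide either, and only part of the MyD88-KO arrays had the scan day of wild-type.

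Mitosis transcripts fell in untreated culture. From 1 to 16 h in serum-free medium, the untreated level of the 30 mitosis genes changed by a median of -3.39 (log2) in wild-type cells, -3.81 under the TRIF-KO label, -3.01 in MyD88-KO and -3.30 in double-KO, with no LPS given. The 17 kept genes of G1/S and replication went both ways, with medians of 0.13, -0.16, 0.20 and -0.30 and, in wild-type, changes from -3.11 (Rrm2) and -2.80 (Tk1) to 0.83 (Pcna), and the median over all genes lay between -0.03 and 0.03. At 16 h the level was below that at 1 h for 30, 29, 30 and 29 of the 30 mitosis genes in the 4 genotypes in that order, and by more than 2 (log2) for 24, 26, 22 and 26. These are bulk samples, in which fewer cells of a type and less RNA per cell cannot be told apart.

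The untreated levels of Birc5, Ccnb1, Mki67 and Top2a are given as examples, and genes such as Aurkb, with 16 h minus 1 h changes of -0.66 in wild-type and 0.33 in double-KO, went differently. Birc5, which encodes survivin of the chromosomal passenger complex, had untreated levels of 15.55, 15.19, 14.56, 13.42 and 10.84 (log2 intensity) in wild-type at 1, 2, 4, 8 and 16 h, and of 16.26, 15.76, 15.04, 12.84 and 10.85 in double-KO. Ccnb1, the cyclin that drives entry into mitosis, went from 13.66 at 1 h through 11.97 at 8 h to 9.30 at 16 h in wild-type and from 13.45 through 10.69 to 8.64 in double-KO. In both genotypes the 16 h value was the lowest and the 1 h and 2 h values the highest. Mki67, the gene of the proliferation antigen Ki-67, went from 14.79 to 11.004 in wild-type, 15.33 to 11.55 under the TRIF-KO label, 14.83 to 11.04 in MyD88-KO and 15.02 to 10.68 in double-KO between 1 and 16 h. Top2a, the topoisomerase that untangles sister chromatids, had levels of 11.99, 10.84, 10.84, 10.08 and 8.36 in wild-type and 11.65, 11.46, 10.52, 9.24 and 8.75 in double-KO. The MyD88-KO value of 2 h, read in Cy5, was in no fit of levels. Levels of the 4 genotypes at 1 h did not overlap those at 16 h for these 4 genes.

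The change was tested with limma over 19 arrays, as a slope per doubling of time averaged over the genotypes, with p-values adjusted by Benjamini and Hochberg over all genes and called at 0.05 here and throughout. Of the 30 mitosis genes 29 fell and 0 rose, at an unadjusted p under 0.05 also 29 and 0, where 16.6% of all genes tested fell and 16.5% rose. The steepest were Birc5 (-1.27 ± 0.14 per doubling, standard error, adjusted p = 1.2e-05), the cyclin Ccnb2 (-1.23 ± 0.18, 0.00014), the kinesin Kif20a (-1.17 ± 0.13, 2e-05) and the spindle protein gene Nusap1 (-1.13 ± 0.10, 2e-06). The gene not called was Aurkb, a dim probe (-0.06, adjusted p = 0.46). Among the 17 genes of G1/S and replication, 6 fell and 2 rose. Those that fell most serve nucleotide supply: thymidine kinase Tk1 (-0.73 ± 0.05, adjusted p = 4e-07), the ribonucleotide reductase subunits Rrm2 (-0.71 ± 0.07, 4.5e-06) and Rrm1 (-0.29 ± 0.03, 2.1e-05), followed by the helicase subunit gene Mcm7 (-0.27 ± 0.04, 0.00041). The sliding clamp Pcna (0.39 ± 0.04, 2.4e-06) and the helicase subunit gene Mcm2 (0.20 ± 0.06, 0.028) rose. Of the G1 regulators, cyclin D1 (Ccnd1, 0.94 ± 0.15, 0.00027) and the kinase inhibitor p21 (Cdkn1a, 0.25 ± 0.05, 0.0032) rose, and the inhibitor p27 (Cdkn1b) was at 0.11 (adjusted p = 0.16). Without the MyD88-KO array of 1 h the slope of Cdkn1a was 0.11 and not called (adjusted p = 0.20), and the Mcm2 call ended without any of 5 single arrays: wild-type of 1 h or any genotype's of 16 h.

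**Figure D1:**
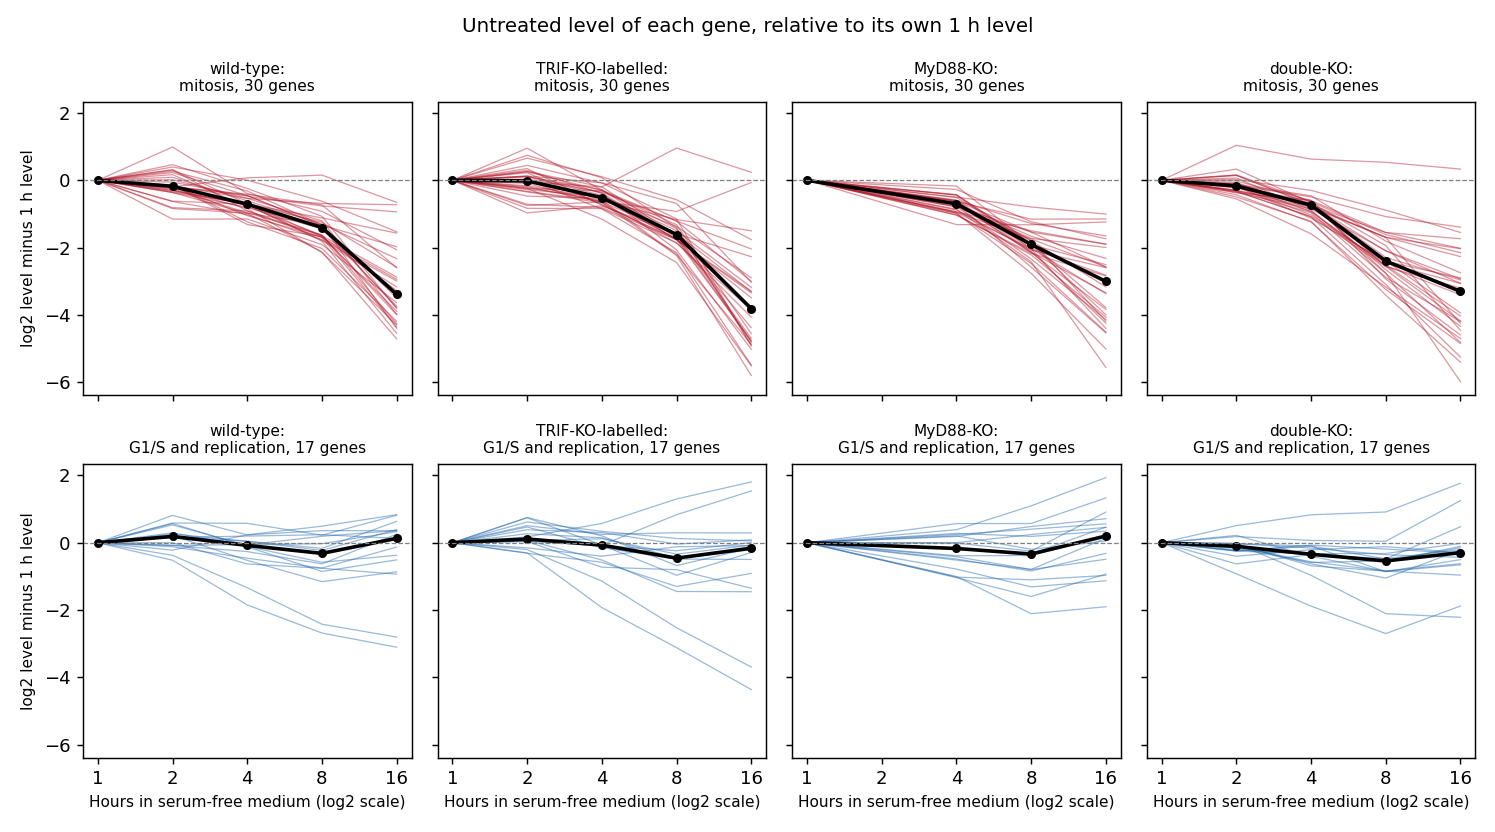
Untreated level of each gene on the log2 scale, relative to its level at 1 h, against hours in culture (log axis), with genotypes in columns and mitosis (red) above G1/S and replication (blue). Thin lines are single genes and black lines their medians, with the MyD88-KO value of 2 h, from the swapped array, left out; the mitosis median reaches -3.39 in wild-type at 16 h and -3.30 in double-KO, while the G1/S medians end at 0.13 and -0.30, with single genes going both ways.

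Mitosis genes fell both before and after 8 h. The steps from 1 to 8 h and from 8 to 16 h were tested with time as a factor, a fit chosen after seeing the levels. From 1 to 8 h, 29 mitosis genes fell and 0 rose, where 10.4% of all genes fell and another 10.4% rose. The falls were led by Birc5 (-2.63 ± 0.22, adjusted p = 2.2e-06), Nusap1 (-2.46 ± 0.22, 3.6e-06), the S and G2 cyclin Ccna2 (-2.33 ± 0.23, 7.7e-06) and Kif20a (-2.23 ± 0.23, 1.2e-05). Over the same hours 9 of the 17 genes of G1/S and replication fell, among them Rrm2 (-2.52 ± 0.41, 0.00049), Tk1 (-2.29 ± 0.21, 5.3e-06), Mcm7 (-1.07 ± 0.16, 0.00027) and Mcm5 (-0.97 ± 0.13, 0.00013), and Pcna rose (0.95 ± 0.16, 0.00068). From 8 to 16 h, 26 mitosis genes fell further and 0 rose, against 3.03% and 1.44% of all genes, with Ccnb2 (-3.31 ± 0.23, 2.1e-06), Birc5 (-2.60 ± 0.22, 1.7e-05), Cdca3 (-2.57 ± 0.16, 9.8e-07) and Ccnb1 (-2.56 ± 0.21, 1.2e-05) in front. Between 8 and 16 h 0 genes of G1/S and replication fell, also at an unadjusted p under 0.05, and 4 rose: Mcm2 (0.97 ± 0.17, 0.0051), Mcm5 (0.69 ± 0.13, 0.0087), Mcm3 (0.69 ± 0.14, 0.014) and Pcna (0.64 ± 0.16, 0.035). The call of Pcna ended without any of 7 single arrays, and that of Mcm3 without the wild-type or TRIF-KO-labelled array of 8 h. Of the mitosis calls from 8 to 16 h, Cenpa and Cdc25c were lost in 9 fits without 1 array each, Kif23 in 4 and Cdca8 in 2. Mcm5 thus went down and came back, from 11.47 at 1 h to 10.71 at 8 h and 11.34 at 16 h in wild-type. Rrm2 went from 12.03 to 9.35 and 8.93 in wild-type and from 11.97 to 9.27 and 10.09 in double-KO. Mcm2 was at 9.35, 9.18 and 9.99 in wild-type and at 8.94, 8.98 and 10.19 in double-KO at the same 3 times.

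Cyclin D1 moved against the mitosis genes. Ccnd1, which starts G1 progression after growth factor signals, was at 11.55, 11.29, 10.80, 13.48 and 15.01 in untreated wild-type cells at 1, 2, 4, 8 and 16 h and at 10.65, 10.44, 11.10, 12.63 and 14.53 in double-KO. It rose by 2.04 ± 0.17 from 1 to 8 h (adjusted p = 2.1e-06) and by 1.57 ± 0.17 from 8 to 16 h (0.00012), and its 8 h and 16 h values lay above all earlier ones in each genotype. Cdkn1a rose by 1.06 ± 0.17 from 1 to 8 h (0.00046). Ccne1 (cyclin E1), E2f1 (the E2F factor) and Tyms (thymidylate synthase) were called in neither step.

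Markers of macrophages and of other cells were read over the same hours. The summed level of the macrophage markers, in which the brightest weigh most, lay between 19.53 and 20.14 (log2) over all arrays and genotypes. Single ones moved: over culture time 3 of 8 were called higher and 2 lower, against 16.5% and 16.6% of all genes. In wild-type Fcgr1 went from 15.50 at 1 h to 17.20 at 16 h and Itgam from 14.75 to 13.24. The sum of the 10 markers of granulocyte and myeloid precursors on the array lay between 12.74 and 14.65, with 5 of the 10 well above background on all arrays. Cd34, a surface protein of blood progenitors singled out after its values were seen, went from 13.65 at 1 h to 7.34 at 16 h in untreated wild-type cells, from 12.97 to 7.23 under the TRIF-KO label, from 12.49 to 7.73 in MyD88-KO and from 13.66 to 8.60 in double-KO. The precursor list did not move as one: over culture time 3 of its 10 genes were called lower and 1 higher, and Elane, a granule protease, went from 11.33 to 13.63 under the TRIF-KO label and from 11.98 to 13.97 in double-KO. Kit was above background on 4 and Prtn3 on 9 of the 20 arrays. Summed neutrophil markers lay between 13.51 and 13.97 in MyD88-KO and between 12.10 and 13.07 in the other genotypes. In untreated MyD88-KO against wild-type, 5 of 6 neutrophil markers (median 1.105) and 5 of 10 precursor markers (0.38) were called higher and 0 lower. Of all genes, 10% were called there in either direction. Wild-type and MyD88-KO shared no slide, so slide is mixed into this difference. With slide or scan day as a fixed block, 669 and 270 of all genes were called there, against 2214 without a block. Summed T cell markers lay between 11.22 and 11.74, B cell markers between 10.19 and 10.94, and stromal markers between 9.84 and 10.60. Erythroid markers lay between 9.37 and 9.92, and Pdgfra of the stromal list was above background on 0 arrays. The part of precursor cells in the loss of mitosis transcripts was not tested.

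LPS lowered the mitosis genes further below this falling baseline, and most at 8 h. The median log2 ratio of LPS over untreated for the 30 genes was 0.07, 0.10, -0.44, -1.82 and -0.56 in wild-type at 1, 2, 4, 8 and 16 h. It was 0.08, 0.08, -0.11, -1.37 and -0.49 under the TRIF-KO label and 0.02, 0.20, 0.14, -1.26 and -0.30 in MyD88-KO. In these 3 genotypes, called responding below, the ratios were near 0 at 1 and 2 h and lowest at 8 h. In double-KO the medians were -0.02, -0.08, 0.01, 0.07 and 0.05, and the 150 single values lay between -0.32 (Cdc20) and 0.34 (Cenpa). The genes of G1/S and replication had medians of -0.07, -0.08, -0.71, -0.71 and -0.22 in wild-type, 0.01, -0.10, -0.47, -0.82 and -0.75 under the TRIF-KO label, -0.09, 0.01, -0.26, -0.59 and -0.79 in MyD88-KO and -0.02, -0.09, -0.04, -0.08 and -0.07 in double-KO. At 4 h their medians were thus below those of the mitosis genes in all 3 responding genotypes, and at 8 h above them; this order was not tested.

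**Figure D2:**
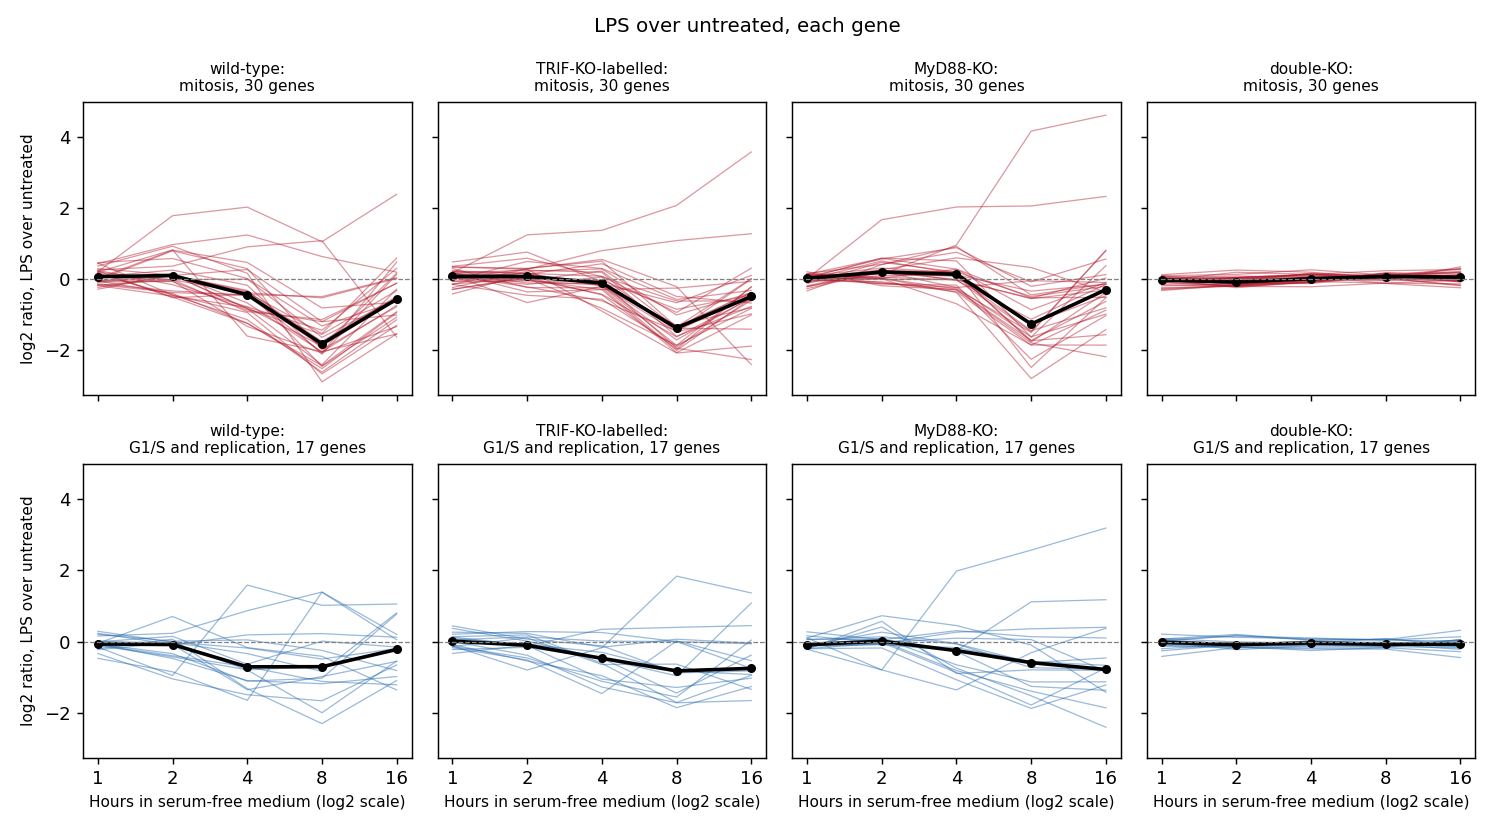
Log2 ratio of LPS-treated over untreated cells for each gene against hours of LPS (log axis), with genotypes in columns, mitosis (red) above G1/S and replication (blue), and the sign of the swapped array turned. Thin lines are genes and black lines their medians; the mitosis medians dip at 8 h, to -1.82 in wild-type, -1.26 in MyD88-KO and -1.37 under the TRIF-KO label, and lie between -0.08 and 0.07 in double-KO.

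The ratio at 8 h was tested as the mean over wild-type, MyD88-KO and TRIF-KO-labelled, with time and genotype as factors over 15 arrays, so that the 3 genotypes stand in for replicates; this fit was chosen after seeing that many ratios were lowest at 8 h. Of the 30 mitosis genes 26 were lower with LPS and 1 was higher, where 24.6% of all genes were lower and 19.2% higher, and the median was -1.56 against 0.00041 for all genes. The ratio was below 0 in each of the 3 genotypes for 26 of the 30. Largest were Cdc20, the activator of the anaphase-promoting complex (-2.42 ± 0.19, 5.37-fold lower, adjusted p = 5.7e-06), Ccna2 (-2.23 ± 0.15, 4.67-fold, 2.2e-06), Ccnb1 (-2.18 ± 0.14, 4.54-fold, 1.3e-06) and Kif20a (-2.10 ± 0.13, 4.28-fold, 1.5e-06). Of the genes of G1/S and replication 10 of 17 were lower and 2 higher, with a median of -0.66. Leading were Rrm2 (-1.85 ± 0.23, 3.60-fold lower, 0.00011), Mcm7 (-1.80 ± 0.17, 1.4e-05), Rrm1 (-1.53 ± 0.16, 3.7e-05) and E2f1 (-1.46 ± 0.20, 0.00023). The calls on Aurkb, Cenpe, Ttk, Pcna, Tk1 and Tyms ended when 1 or another array was left out. The counts of all members called ranged from 35 to 42 of 50 over such fits.

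Single ratios of mitosis genes show the timing. Ccna2 had log2 ratios of -0.05, -0.40, -1.24, -2.52 and -0.94 in wild-type at 1, 2, 4, 8 and 16 h, -0.15, -0.45, -0.56, -1.91 and -0.59 under the TRIF-KO label, 0.01, -0.13, -0.17, -2.25 and -1.02 in MyD88-KO and -0.09, 0.05, 0.13, 0.13 and 0.05 in double-KO. Ccnb1 ratios were -0.08, 0.11, -0.32, -2.45 and -1.07 in wild-type, 0.17, 0.25, 0.19, -1.61 and -0.77 under the TRIF-KO label, -0.13, 0.48, 0.20, -2.48 and -0.52 in MyD88-KO and -0.27, -0.16, -0.03, 0.00 and -0.06 in double-KO. Both cyclins were lowest at 8 h in the 3 responding genotypes, and no double-KO value was below -0.27. For the mitotic kinase gene Plk1 the ratios were -0.18, -0.48, -0.79, -1.88 and -0.58 in wild-type, 0.06, 0.16, -0.18, -1.71 and -0.52 under the TRIF-KO label, -0.21, 0.19, 0.16, -1.28 and -0.28 in MyD88-KO and 0.01, -0.10, -0.12, 0.10 and 0.30 in double-KO. Top2a ratios were -0.02, 0.80, 0.30, -1.99 and -0.78 in wild-type, -0.24, 0.22, 0.29, -1.01 and -0.38 under the TRIF-KO label, -0.02, 0.51, 0.15, -1.73 and -1.56 in MyD88-KO and -0.29, -0.19, 0.08, -0.12 and -0.24 in double-KO. Top2a was above 0 at 2 and 4 h in the 3 responding genotypes and below 0 at 8 and 16 h. The mean ratio at 8 h was -1.62 ± 0.12 for Plk1 and -1.58 ± 0.20 for Top2a, both called lower.

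Mki67 went the other way. Its log2 ratios were 0.21, 1.78, 2.03, 1.05 and 2.39 in wild-type at 1, 2, 4, 8 and 16 h, 0.18, 1.25, 1.37, 2.07 and 3.58 under the TRIF-KO label, 0.02, 1.67, 2.03, 2.06 and 2.33 in MyD88-KO and -0.02, -0.14, 0.03, 0.12 and 0.18 in double-KO. From 2 h on every value of the 3 responding genotypes was at least 1.05, and no double-KO value was above 0.18. With LPS the mean ratio at 8 h was 1.73 ± 0.26 (3.31-fold higher, adjusted p = 0.00035) and at 16 h 2.77 ± 0.26 (3.2e-05). A second Mki67 probe gave 0.38, 2.13, 2.12, 1.14 and 2.57 in wild-type and 0.00, -0.04, 0.16, 0.20 and 0.17 in double-KO. In LPS-treated wild-type cells the level went from 15.002 at 1 h to 13.39 at 16 h, where the untreated level went from 14.79 to 11.004. On the genome build of the array (mm9), the main probe lies at chr7:142881591-142881650, and no annotation of that build was used to place it in an exon.

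The other mitosis genes not called at 8 h were Kif4 (-0.35, adjusted p = 0.12), the checkpoint gene Mad2l1 (0.51, 0.088) and Tpx2, a spindle assembly factor (1.68 ± 0.89, 0.15). For Tpx2 the probes differed in size, and in sign in wild-type at 8 h. The brighter probe had ratios of 1.08 and -1.63 at 8 and 16 h in wild-type, -0.21 and -2.40 under the TRIF-KO label and 4.16 and 4.61 in MyD88-KO. The other probe had -0.60 and -0.88 in wild-type, -0.66 and -0.87 under the TRIF-KO label and 0.41 and 0.36 in MyD88-KO. Both probes were thus above 0 in MyD88-KO, and the size of the rise there rests on 1 probe. A second kept probe of Kif23, which acts in cytokinesis, was well above background on 2 of 20 arrays in untreated cells and on 12 in LPS-treated cells. It was thus seen more often with LPS, while the main probe, above background on all 20 in both, was lower with LPS at 8 h. Its untreated signal is too near background to check the main probe, on which the Kif23 values given here rest.

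Among replication genes the helicase subunits split. Mcm2 ratios were -0.07, -0.47, -1.10, -1.19 and -0.98 in wild-type at 1, 2, 4, 8 and 16 h, 0.09, -0.08, -0.30, -0.82 and -0.93 under the TRIF-KO label, -0.06, 0.01, -0.81, -1.40 and -1.86 in MyD88-KO and -0.02, -0.10, -0.04, -0.04 and -0.14 in double-KO. Mcm5, another subunit of the same ring, had 0.20, 0.01, 0.05, -0.25 and -0.81 in wild-type, 0.21, 0.28, 0.26, 0.00 and -0.75 under the TRIF-KO label, 0.16, -0.03, 0.10, 0.06 and -0.83 in MyD88-KO and 0.21, 0.12, 0.08, 0.05 and 0.14 in double-KO. Mcm2 was below 0 from 4 h on in the 3 responding genotypes, while Mcm5 had its lowest value at 16 h in each of them. At 8 h Mcm7, Mcm6, Mcm2 and Mcm4 were called lower, and Mcm5 (-0.06, adjusted p = 0.51) and Mcm3 (-0.22, 0.28) were not. Cdc6, which loads the helicase at origins, had 0.23, -0.08, -1.35, -0.98 and -0.56 in wild-type, 0.37, 0.01, -0.47, -0.80 and -0.77 under the TRIF-KO label, -0.22, 0.57, -0.90, -0.80 and -0.81 in MyD88-KO and 0.05, 0.16, 0.10, 0.04 and 0.02 in double-KO. It was lowest at 4 h in wild-type and MyD88-KO. The Cdc6 probe was well above background in LPS-treated cells on 13 of 20 arrays, so its low ratios lie near the floor.

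Nucleotide enzymes moved apart. Rrm2 ratios were -0.20, 0.07, -1.32, -2.31 and -1.10 in wild-type, 0.14, 0.19, -0.61, -1.72 and -0.95 under the TRIF-KO label, -0.19, 0.41, -0.75, -1.52 and -2.41 in MyD88-KO and -0.10, -0.17, -0.09, -0.14 and -0.18 in double-KO. Tyms ratios were 0.16, 0.23, 0.87, 1.39 and 0.20 in wild-type, 0.01, -0.12, 0.35, 0.40 and 0.45 under the TRIF-KO label, 0.28, 0.05, 0.31, 0.14 and 0.10 in MyD88-KO and 0.07, 0.20, 0.04, 0.05 and 0.32 in double-KO. Rrm2 was below 0 from 4 h on in each responding genotype, and Tyms stood out in wild-type at 4 and 8 h only, where no other array reached its value. Its call at 8 h (0.64 ± 0.16, adjusted p = 0.0088) became 0.33 (adjusted p = 0.12) without the wild-type array of 8 h. Tk1 was lower at 8 h (-1.02, called) and at 16 h was at 0.81 in wild-type, 1.08 under the TRIF-KO label and -1.37 in MyD88-KO.

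Regulators of S phase entry differed from each other in direction. Cyclin E1 (Ccne1) had ratios of -0.15, -0.95, 1.59, 1.02 and 1.06 in wild-type, -0.12, -0.80, -0.17, 1.84 and 1.37 under the TRIF-KO label, 0.10, -0.80, 1.98, 2.57 and 3.19 in MyD88-KO and -0.03, -0.05, -0.08, -0.12 and 0.05 in double-KO. It was below 0 at 2 h and above 0 at 8 and 16 h in all 3 responding genotypes, and its mean at 8 h was 1.81 ± 0.34 (3.51-fold higher, adjusted p = 0.0015). E2f1 ratios were -0.07, -0.34, -1.11, -1.03 and 0.77 in wild-type, -0.14, -0.46, -1.12, -1.56 and 0.04 under the TRIF-KO label, -0.09, -0.03, -0.87, -1.78 and -0.74 in MyD88-KO and -0.08, -0.14, -0.25, -0.17 and 0.05 in double-KO. E2f1 was thus low at 4 and 8 h, with every value of the 3 responding genotypes at or below -0.87, and at 16 h was above 0 in wild-type and TRIF-KO-labelled cells.

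Cyclin D1 was lower with LPS late in the course. Ccnd1 ratios were 0.02, -0.10, -0.92, -2.08 and -3.005 in wild-type, -0.31, -0.27, -1.02, -2.15 and -2.74 under the TRIF-KO label, 0.00, -0.28, -0.78, 0.11 and -1.69 in MyD88-KO and 0.08, 0.32, 0.11, 0.13 and -0.11 in double-KO. At 8 h MyD88-KO stood apart from the other responding genotypes, which were at -2.08 and -2.15. The mean ratio was -1.37 ± 0.29 at 8 h (adjusted p = 0.0031) and -2.48 ± 0.29 at 16 h (0.00015). Cdkn1a ratios were 1.01, 1.94, 2.79, 0.82 and 0.06 in wild-type, 0.90, 1.98, 2.75, 1.78 and 0.58 under the TRIF-KO label, 0.67, 2.11, 2.96, 2.88 and 2.05 in MyD88-KO and 0.22, 0.22, 0.27, 0.36 and 0.39 in double-KO. It was highest at 4 h in the 3 responding genotypes, ahead of the lowest mitosis ratios. A second probe of Cdkn1a had 1.45, 1.26, 1.55, 0.31 and -0.001 in wild-type at these times, and another probe had 0.06, 0.20, -0.17, -1.35 and -1.28. Cdkn1b ratios were 0.01, 0.66, 0.30, 0.10 and 0.13 in wild-type, 0.31, 0.33, -0.53, -0.34 and -0.56 under the TRIF-KO label, 0.14, -0.42, -0.67, -0.80 and -0.55 in MyD88-KO and 0.02, 0.14, 0.06, 0.12 and 0.05 in double-KO, and it was not called at 8 h (-0.35, adjusted p = 0.098).

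**Figure D3:**
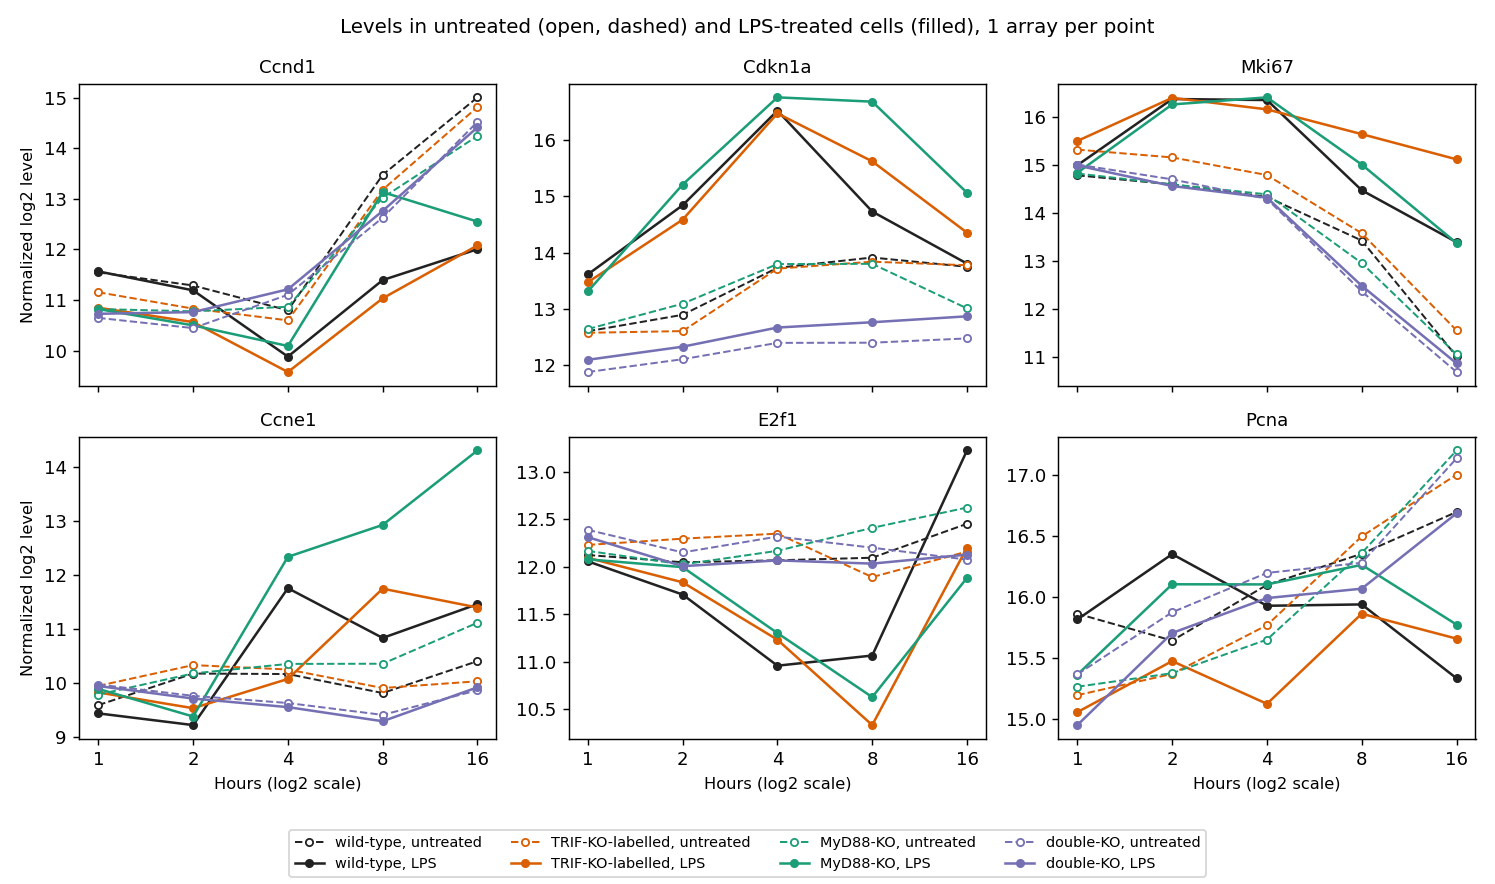
Levels on the log2 intensity scale of Ccnd1, Cdkn1a, Mki67, Ccne1, E2f1 and Pcna against hours (log axis), untreated (open points, dashed) and LPS-treated (filled points, solid), with 1 colour per genotype and 1 array per point, the swapped array included. Untreated Mki67 falls from 14.79 to 11.004 in wild-type while untreated Ccnd1 climbs from 11.55 to 15.01, and in double-KO the LPS ratio of these 6 genes lies between -0.45 and 0.39.

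By 16 h the mitosis ratios had come back towards 0. Of the 30 genes 13 were lower and 1 higher, against 13.5% and 12.9% of all genes, with Kif23 (-1.76 ± 0.18, adjusted p = 5.6e-05), the centromere histone gene Cenpa (-1.36 ± 0.21, 0.00082), Cdc20 (-1.13 ± 0.19, 0.0018) and Ect2 (-1.04 ± 0.17, 0.0012) lowest. Marker lists moved in the same ratio: the median was -0.44 for the mitosis genes, -0.48 for 8 macrophage markers (3 lower, 0 higher), -0.75 for 6 neutrophil markers (4 lower, 0 higher) and -0.27 for 10 precursor markers (3 lower, 1 higher), against -0.33, -0.40 and 0.05 for these lists and -1.56 for the mitosis genes at 8 h, and the part of other cells was not tested. Of the genes of G1/S and replication 9 were lower, led by Rrm2 (-1.48 ± 0.23, 0.0011), Pcna (-1.38 ± 0.13, 3.4e-05), Mcm2 (-1.26 ± 0.16, 0.00024) and Mcm6 (-1.18 ± 0.16, 0.00033), and Ccne1 was higher (1.87 ± 0.34, 0.0025). The call of Cdkn1a at 16 h (0.90 ± 0.29, 0.046) ended without any of 9 single arrays. Those of Aurka, Plk1, Cdc6 and Mcm4 ended without either of 2, and those of Ccnb2, Ube2c, Top2a and Rrm1 without 1. From 8 to 16 h the ratio itself rose for 16 mitosis genes and fell for 0, where 8.22% and 2.73% of all genes did so. Foremost were the checkpoint kinase Bub1b (2.16 ± 0.25, 0.0022), Birc5 (2.07 ± 0.21, 0.0011), the midzone protein gene Prc1 (1.87 ± 0.18, 0.00085) and Cdca8 (1.49 ± 0.22, 0.0038). Of the G1/S genes E2f1 (1.48 ± 0.29, 0.011) and Rrm1 (0.84 ± 0.23, 0.041) rose, and Pcna (-0.99 ± 0.18, 0.0085) and Mcm5 (-0.74 ± 0.10, 0.0029) fell. E2f1 was not called without the wild-type array of 16 h (adjusted p = 0.052), nor Rrm1 in 13 such fits. Of the mitosis genes Nusap1 was lost in 11 such fits, and Cdc20 and Ect2 in 4 each.

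Set against the baseline, the ratio at 16 h compares 2 low levels. From 1 h on, the median untreated mitosis gene changed by -1.40 to -2.40 (log2) in the 4 genotypes by 8 h and by -3.01 to -3.81 by 16 h, and the median LPS-treated one by -3.43 to -4.60 by 16 h. In untreated cells of 16 h the probes of 26, 24, 26 and 27 of the 30 mitosis genes were well above background in wild-type, then under the TRIF-KO label, in MyD88-KO and in double-KO, and in LPS-treated cells those of 23, 22, 25 and 24. Both comparisons read the untreated channel of the same arrays, so no relation between them was computed, and their values stand side by side. Cdc20 had an untreated level of 13.66 at 1 h, 12.59 at 8 h and 9.85 at 16 h in wild-type, and a ratio of -2.62 at 8 h and -1.14 at 16 h. Birc5 had ratios of -2.41 and -0.28 at these hours. Pcna, whose untreated level rose from 15.87 to 16.70 in wild-type, had ratios of -0.41 and -1.36. Mcm6 had untreated levels between 15.14 and 15.56 in wild-type and ratios of -1.12 and -1.22.

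**Figure D4:**
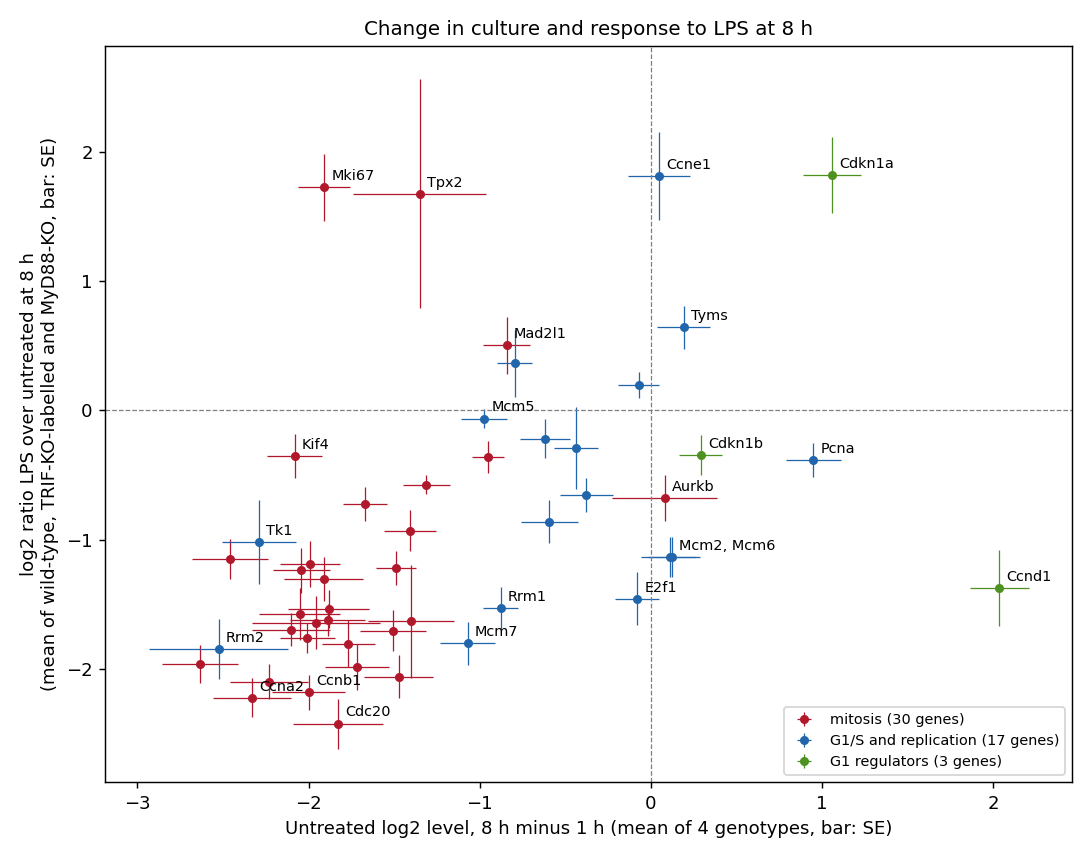
Change of the untreated level from 1 to 8 h (horizontal axis, log2, mean of 4 genotypes) and LPS ratio at 8 h (vertical axis, log2, mean of wild-type, MyD88-KO and TRIF-KO-labelled) for the 50 genes, coloured by role, with error bars of 1 standard error. Most mitosis genes lie low on both axes, Mki67 lies low on the first and at 1.73 on the second, and Ccnd1 lies at 2.04 and -1.37; both axes use the untreated channel of 8 h.

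Averaged over the 5 times, with a slope over log2 hours within genotype, 16 of the 50 members were lower with LPS and 4 higher in wild-type, against 15.6% and 15.5% of all genes. In the mitosis set 8 were lower, with Cdc20 (-1.04), Ccna2 (-1.03), Kif20a (-0.98) and Ect2 (-0.98) in front, and Mki67 (1.49) and Mad2l1 (0.70) were higher. In the G1/S set 7 were lower, with Mcm7 (-1.04), Rrm2 (-0.97), Mcm2 (-0.76) and Mcm6 (-0.71) in front, and Tyms (0.57) was higher. Under the TRIF-KO label 9 were lower and 3 higher (13.5% and 12.3% of all genes), and in MyD88-KO 11 and 5 (14.9% and 15.7%). Lower under the TRIF-KO label were Mcm6 (-1.01), Mcm7 (-0.94), Kif23 (-0.94), Ect2 (-0.71), Gins1 (-0.67), Cenpa (-0.61) and Mcm2 (-0.41), with 2 others, and Mad2l1 (0.76) was higher. Lower in MyD88-KO were Mcm7 (-0.91), Cdc20 (-0.89), Rrm2 (-0.89), Kif23 (-0.87), Cenpa (-0.86), Mcm2 (-0.82), Rrm1 (-0.58) and Cdkn1b (-0.46), with 3 others, and Chek1 (0.16) was higher. Mki67 and Cdkn1a were higher and Ccnd1 lower in each of these genotypes. The wild-type call of Cdkn1a ended without its array of 4 h and turned to -0.283 with slide as a fixed block, and the MyD88-KO call of Ccnd1 ended without its array of 1, 2, 4 or 16 h, at -0.24 without the last (adjusted p = 0.30). Ect2 under the TRIF-KO label was lost in 15 fits without 1 array, at -0.44 without its array of 8 h (adjusted p = 0.26), and Cenpa there without its arrays of 1, 2, 8 or 16 h. In MyD88-KO Rrm1 was lost in 12 such fits, Chek1, a dim probe, in 3, and Cdc20, Kif23 and Rrm2 in 2 each. Kif23 under the TRIF-KO label was lost in 2. Without the wild-type array of 8 h its calls of Cdc20, Ccna2, Kif20a and Ect2 ended, at -0.72, -0.72, -0.69 and -0.66. Ccne1 (1.41) and Tpx2 (2.00, on the brighter of its 2 probes) were called higher in MyD88-KO alone. The difference between genotypes was not tested for them.

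In double-KO 0 members were called by limma, and 1 of 50 had an unadjusted p under 0.05, where 0.0136% of all genes were lower and 0.943% higher. In these fits and those of slopes below, the 4 genotypes share 1 estimate of the spread per gene. The SD of all log2 ratios of an array was 0.108 to 0.179 in double-KO and 0.186 to 0.79 in the other genotypes. Calls, or their absence, therefore do not measure a genotype's own spread. The averages over the 5 times depend on the arrays and on the slide. The wild-type count of 20 became 13, 10 and 33 without its array of 4, 8 or 16 h, and the TRIF-KO-labelled count of 12 became 19 and 21 without the wild-type arrays of 8 or 16 h and 20 without its own of 16 h. The MyD88-KO count of 16 became 8 without its array of 1 h. With slide as a fixed block the counts were 0, 7 and 0.

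Slopes of the ratio over time were called for 6 members in wild-type, 7 under the TRIF-KO label, 10 in MyD88-KO and 0 in double-KO, where limma found 0 members also at an unadjusted p under 0.05. All genes were called at 5.5%, 7.06% and 10.3% in the first 3 of these. In wild-type the ratio fell with time for Ccnd1 (-0.80 ± 0.12 per doubling, adjusted p = 0.0021), the kinetochore motor gene Cenpe (-0.76 ± 0.20, 0.042), Kif23 (-0.63 ± 0.16, 0.035), Ccnb2 (-0.41 ± 0.11, 0.046), Mcm6 (-0.30 ± 0.05, 0.0048) and Mcm2 (-0.25 ± 0.06, 0.03). Under the TRIF-KO label Cenpe, Ccnd1, Kif23, Mcm6, Mcm4 and Mcm2 fell, and Mki67 rose (0.76 ± 0.15, 0.008). In MyD88-KO Rrm2 (-0.64 ± 0.16, 0.023), Cenpa, Kif23, Mcm2 and Mcm3 fell, and Tpx2, Ccne1 (0.95 ± 0.22, 0.013), Mki67, Gins1 and Chek1 rose. The MyD88-KO arrays of 1 and 2 h differ from the later ones in slide and scan day too. With slide or scan day as a fixed block 0 members were called for this slope. Many of these calls rest on single arrays. The Mki67 slope in MyD88-KO was lost in 13 of 20 fits without 1 array and was 0.20 without its array of 1 h (adjusted p = 0.61). Kif23 was lost in 8 such fits in wild-type, 14 under the TRIF-KO label and 10 in MyD88-KO, and in wild-type Ccnb2 was lost in 13, Cenpe in 10 and Mcm2 in 3. Under the TRIF-KO label Mcm2 was lost in 4, Cenpe in 3, Mki67 in 2, and Ccnd1 and Mcm4 in 1 each. In MyD88-KO Rrm2, Gins1 and Mcm3 were lost in 3 each, and Ccne1, Tpx2, Cenpa and Chek1 in 1 each. The counts move too. The wild-type count became 2 without its array of 2 or 8 h, 17 without that of 16 h and 3 without any 1 double-KO array. The TRIF-KO-labelled count became 11 without the wild-type array of 8 or 16 h, 3 without its own array of 1 h, 4 without that of 2 or 8 h and 2 without that of 16 h. The MyD88-KO count became 6 without its array of 2 or 8 h and 3 without that of 16 h. The differences between these slopes and that of double-KO were tested too. For wild-type 0 members were called by limma (0.544% of all genes), with 7 at an unadjusted p under 0.05, and 1 when the wild-type array of 1 or 16 h, the TRIF-KO-labelled array of 16 h or the MyD88-KO array of 8 or 16 h was left out. For TRIF-KO-labelled the 1 called (0.49% of all genes) was Mcm6 (-0.43 ± 0.08, adjusted p = 0.028), and for MyD88-KO (1.93%) it was Mcm2 (-0.48 ± 0.09, 0.016). Both calls ended with slide as a fixed block. The Mcm6 call ended without the TRIF-KO-labelled arrays of 1, 2 or 8 h or any double-KO array, and that of Mcm2 without the MyD88-KO array of 16 h or the double-KO array of 1 or 16 h. The count became 2 for TRIF-KO-labelled without the MyD88-KO array of 8 h, and 2 or 3 for MyD88-KO without the wild-type array of 8 or 16 h.

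Without LPS few of these genes were called between genotypes. At the same times, 0 members were called between TRIF-KO-labelled and wild-type cells by limma, with 12 at an unadjusted p under 0.05 (11 of them higher), and 0 between MyD88-KO and wild-type, with 2; of all genes 0.44% and 10% were called. In double-KO 3 were higher and 4 lower than wild-type, where 15.5% and 10.6% of all genes were. Arrays of these genotypes shared no slide and no scan day, so genotype cannot be told apart from slide or scan day in these differences. Mcm6 (-1.51 ± 0.12, adjusted p = 9.9e-07) was at 13.85, 13.82, 13.75, 13.37 and 14.33 in double-KO and at 15.20, 15.41, 15.14, 15.39 and 15.56 in wild-type, with no overlap. Also lower were Cdkn1a (-1.12 ± 0.15, 9.8e-05), Ccnd1 (-0.55 ± 0.15, 0.016) and the replication factor gene Gins1 (-0.43 ± 0.11, 0.012). Higher were the licensing factor Cdt1 (0.54 ± 0.09, 0.00058), Cdca3 (0.45 ± 0.14, 0.031) and Mad2l1 (0.37 ± 0.12, 0.039). Single arrays ended the calls of Mad2l1 (any of 9 of the 19 arrays left out), Cdca3 (6) and Ccnd1 (2: wild-type of 2 h and double-KO of 8 h). For TRIF-KO-labelled 1 member was called without its own or the wild-type array of 16 h, and for MyD88-KO 1 without the wild-type or double-KO array of 4 h and 2 without its own of 1 h. The double-KO count of 7 became 1 with slide or scan day as a fixed block, and 4 without the wild-type array of 2 h or the double-KO array of 8 h.

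The 3 lists of other cell cycle genes, none of them members and chosen with results of these data known, were read in the same fits. The shares of all genes to read them against are those above: 16.6% fell and 16.5% rose with culture time, and 24.6% were lower and 19.2% higher at 8 h of LPS. Of 43 other mitosis genes tested, 41 fell and 1 rose with culture time, led by the spindle pole gene Aspm (-1.23 per doubling), Shcbp1 (-0.93) and the condensin subunit gene Ncapd2 (-0.90), and the securin gene Pttg1 rose (0.18). At 8 h of LPS 33 of these were lower, with Aspm (-3.21), Kif20b (-2.40) and Ncaph (-1.87) lowest, and 5 higher, with Trip13 (3.08), Cks2 (0.92) and Pttg1 (0.76) highest. Of 53 other replication genes 32 fell and 2 rose with culture time, among them the polymerase gene Pole (-0.52), while Timeless (0.19) and Pold3 (0.17) rose. With LPS at 8 h 32 were lower, with E2f2 (-2.95), Dut (-2.46) and Pola1 (-1.90) lowest, and Pola2 was higher (0.27). The 34 other cell cycle regulators went both ways, and their counts lower at 8 h and rising in culture were near those shares. With culture time 10 fell and 5 rose, with Wee1 (-0.51), Pkmyt1 (-0.47) and Cdkn2c (-0.42) on one side and the kinase inhibitor Cdkn2b (0.65), cyclin D2 (Ccnd2, 0.54) and Btg2 (0.18) on the other. At 8 h of LPS 8 were lower, with Cdkn2c (-2.17), the phosphatase gene Cdc25b (-1.85) and Rb1 (-1.56) lowest, and 12 higher, with Ccnd2 (2.90), Gadd45b (2.73) and Cdkn2b (2.67) highest.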

How the data were processed

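The deposited scanner tables, per the file headers, hold mean and background intensity of each colour from Agilent Feature Extraction 10.10.1.1 on a design with mm9 coordinates. The series' deposited table holds the log10 ratio of red over green and equalled the scanner's ratio within 5e-10, with a column median of 0. In limma 3.58.1 (R 4.3.3), intensities were corrected with normexp (offset 50) and normalized by loess within arrays. Control and outlier spots had weight 0, and levels were normalized between arrays with Aquantile over all 20 arrays. The swapped array was then left out of the fits of levels, which used 19. A probe had to exceed background clearly, in either channel, on 3 arrays or more (28388 of 39429 probes did), and 22049 genes were tested. A fold change is that of log2 ratios or log2 levels after these steps, and the number of arrays limits its precision. Ratios were fitted over 20 arrays by genotype with a slope over log2 hours, levels likewise or with time as a factor, and p-values adjusted by Benjamini and Hochberg (threshold 0.05). In each fit the genotypes shared 1 estimate of the spread per gene. The fits at single times, over 15 or 19 arrays, were chosen after seeing the data. RefSeq held the accession of 65 of the 72 member probes, each with the same symbol. The script for these fits was tested on simulated data.

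Named genes are 15 set genes with every ratio, the 4 largest called per role, direction and comparison, those against their role, and the 3 largest per direction of the other lists, some of which are not reported here; Cdc20, Birc5, Pcna, Mcm6 and Tk1 in the accounts of single arrays were chosen after their values were seen. The members and lists were chosen with earlier results of these data known. Replicate numbers are time points, per the labels. Deviations of same-time arrays from their group means correlated at 0.22 to 0.83 between the ratios of wild-type, MyD88-KO and TRIF-KO-labelled arrays, at -0.20 to 0.13 with double-KO, and at 0.13 to 0.81 between untreated levels. As the numbers are times, these correlations show time courses shared in the levels and in the first 3 genotypes' ratios. They do not show that same-time arrays are paired samples. Alternatives changed background correction, filter, normalization, probe choice, time, slide, scan day and dye terms, and left out each array.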

Additional observations from a re-analysis of the deposited data

Results flagged for a closer look

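The 128 sets of values of a named gene or role in 1 genotype were checked for a value far from the others. A set held 5 values, or 4 for untreated levels in MyD88-KO, where the swapped array was left out. In all, 7 of the 128 stood apart, which is near the about 1 in 20 that chance alone flags. Since the 5 arrays of a genotype are different times, such a value can be a late or an early one. Mki67 had a log2 LPS ratio of 0.02 in MyD88-KO at 1 h, where the later ones lay between 1.67 and 2.33. Ccna2 had -1.91 in TRIF-KO-labelled cells at 8 h, where the others lay between -0.59 and -0.15. Mcm5 had -0.75 in TRIF-KO-labelled at 16 h (others 0.00 to 0.28) and -0.83 in MyD88-KO at 16 h (others -0.03 to 0.16). Among untreated levels, Mcm2 was at 10.19 in double-KO at 16 h (others 8.94 to 9.12), E2f1 at 12.45 in wild-type at 16 h (others 12.05 to 12.12) and Cdkn1b at 12.50 in wild-type at 2 h (others 13.27 to 13.41).

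By limma's test of the difference itself, 2 genes had an LPS response whose slope over time differed from that of double-KO: Mcm6 in TRIF-KO-labelled cells (-0.43 per doubling of time, adjusted p = 0.028) and Mcm2 in MyD88-KO (-0.48, adjusted p = 0.016). Both calls ended with slide as a fixed block.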

How the results depend on the processing

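All values here are counts of the 50 genes called. Without background correction, with no filter or with one of at least 10 arrays, with quantile normalization, with the scanner's deposited log ratio and with the mean of all probes, every count kept within 1.5 times its value. The counts at 8 h (40 to 41 over these and the slide and scan day blocks, 35 to 42 without 1 array), at 16 h (25 to 30, and 21 to 27) and from 8 to 16 h (15 to 21, and 15 to 27) did so under all alternatives run, as did the untreated slope (34 to 39, and 36 to 40) and the untreated steps from 1 to 8 h (40 to 41, and 39 to 42) and 8 to 16 h (29 to 33, and 25 to 31). With slide as a fixed block the mean responses gave 0 calls in wild-type and MyD88-KO and 7 under the TRIF-KO label, the MyD88-KO and TRIF-KO-labelled slopes 0, their differences from double-KO 0, and untreated double-KO against wild-type 1. In that block the wild-type means of Cdkn1a (-0.283) and Tyms (-0.234) changed sign. As a random block, slide gave 9 for the wild-type mean, 4 for the TRIF-KO-labelled slope, 0 for its difference from double-KO and 3 for untreated double-KO. Scan day gave 4 and 2 for the wild-type and TRIF-KO-labelled means, 0 for the MyD88-KO slope and its difference, and 1 for untreated double-KO; on the second scan day alone that difference had 11. A dye term, which rests on the swapped array, gave 4, 3 and 5 for the 3 means and 6 for the MyD88-KO slope. The cause was not tested.

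Over fits without 1 array, the mean responses ranged from 10 to 33, 8 to 21, 8 to 23 and 0 to 0, and the slopes from 2 to 17, 2 to 11, 3 to 12 and 0 to 0, in wild-type, under the TRIF-KO label, in MyD88-KO and in double-KO. Slope differences from double-KO ranged from 0 to 1, 0 to 2 and 0 to 3, and untreated differences from wild-type from 0 to 1, 0 to 2 and 4 to 10.

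With time point as a replicate block, the mean response counts were 28, 14, 18 and 0. Without that block, untreated double-KO against wild-type gave 2. The block moved no other count by over 1.5 times. Signal near background limits the dim probes of Aurkb, Ttk, Cdc25c, Kif2c, Kif11, Cdc6 and Chek1. In LPS-treated cells these were well above background on 7 to 15 of the 20 arrays.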
